A study of Homo sapiens with 6 samples.

Results

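The genes described here are 31 genes of cholesterol and fatty acid synthesis, chosen by symbol from textbook pathway membership and present as rows in all 6 count files, out of 25737 entries. The choice was made with earlier results of these data known. The 31 genes comprise 18 sterol enzymes, 5 genes of sterol sensing and transport, and 8 fatty acid enzymes. All 31 had counts in every library, with a lowest count of 30, and 29 reached the expression minimum in at least 1 library.

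Cells build cholesterol from acetyl-CoA through the mevalonate pathway, which leads by way of isoprenoids and squalene to lanosterol, and then through a series of oxidations, reductions and isomerizations to cholesterol. Fatty acids start from the same acetyl-CoA, are assembled as saturated chains, and are then elongated and desaturated. Both branches are driven by the sterol regulatory element-binding proteins (SREBPs), membrane-bound transcription factors that SCAP escorts to the Golgi for release when sterols are low and that INSIG proteins hold back in the endoplasmic reticulum when sterols are high. In the lung, the same enzymes supply the lipids of membranes and of surfactant.

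To follow these genes under transforming growth factor beta 1 (TGF-β1), the libraries of A549 and BEAS-2B cells were compared at 0, 1 and 5 ng/mL after 48 h, with 1 library per condition. A549 is an established human lung carcinoma epithelial line, BEAS-2B is an immortalized human bronchial epithelial line, and both were wild type. Treated cells received TGF-β1 in medium with 1% fetal bovine serum after growth in 10%. The labels do not state the medium of the untreated cells, so that an effect of TGF-β1 and one of a change of serum cannot be told apart.

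Each dose of a line is a single library, so that doses were not tested within a line, no p-value is given, and the spread between cultures is unknown. A fit of a dose effect shared by both lines, which would take the lines as replicates, was not run. The scaled count is the read count divided by the effective library size (TMM) and multiplied by the mean of the 6 effective sizes. The normalized data (ND) value is log2 of the scaled count plus 1. A fold change (FC) is the ratio of scaled counts with its exact 95% Clopper-Pearson interval, which covers counting error only, as the reads carry no molecular identifiers. The log2 FC has a pseudocount of 1 on the scaled counts. A gene was called when its FC reached 2 in either direction and the higher of the 2 libraries had an ND value of 7 or more, which is a scaled count of 127 or more (the expression minimum). The words rose and fell are used below for called genes only.

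Total counts ranged from 4120624 to 7841350 per library, with both treated A549 libraries deeper than the rest. The TGF-β1 response genes SMAD7, PMEPA1 and SKIL were higher at 5 ng/mL in both lines, with FC from 2.52 (SKIL) to 5.01 (PMEPA1) in A549 and from 3.58 (SKIL) to 21.8 (PMEPA1) in BEAS-2B cells. Of the 6 epithelial markers, the keratins KRT7, KRT8 and KRT18 had at least 175 counts in every library of both lines. KRT7 had 3473, 20603 and 19283 counts at 0, 1 and 5 ng/mL in A549 and 1063, 2966 and 2315 in BEAS-2B cells, while KRT18 had 14592, 13431 and 9719 in A549 and 1418, 717 and 806 in BEAS-2B cells. KRT19 had 5 to 46 counts. CDH1 had 640, 30 and 8 counts in A549 and 2, 0 and 2 in BEAS-2B cells, and EPCAM had 49, 7 and 2 in A549 and 0 in all 3 BEAS-2B libraries. The 9 markers of white blood cells, endothelium and red blood cells lay between 0 and 11 counts in every library, and CD3E, VWF and CDH5 were at 0 in all 6.

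SREBPs bind a short element in promoters, often beside a CCAAT box, to which the factor NF-Y binds. RefSeq promoter windows (GRCh38.p14, 250 bases before to 50 after each start) were at hand for 27 of the 31 genes, and the element's core CACNCCAC was searched on both strands. It was found for 6 of the 27, IDI1, SC5D, INSIG1, SREBF2, ACACA and SCD, and for 7.05% of all 27305 genes with a window. The CCAAT letters were found for 21 of the 27 and for 39.7% of all genes. The matches with their flanks are shown because SREBPs act through this element. Of the 11 genes that fell at 5 ng/mL in at least 1 line, IDI1, SC5D, SCD and INSIG1 have a match in their window and 7 (HMGCS1, LSS, CYP51A1, TM7SF2, MSMO1, ELOVL6 and FADS2) have none, and SREBF2 and ACACA have one and did not fall. Each is written 5′ to 3′ on its gene's strand, with the match in capitals. All but the SREBF2 match are the reverse complement of the core, which thus lies on the other strand.
IDI1 (chr10:1048983-1049012, minus strand): ggccgggcgatGTGGCGTGgactggcgctg
SC5D (chr11:121292773-121292802, plus strand): tttgcagagcaGTGGCGTGcggagcggcgg
SCD (chr10:100347108-100347137, plus strand): gcagaggccggGTGGTGTGgtgtcggtgtc
INSIG1 (chr7:155297659-155297688, plus strand): gcgggccggcgGTGGCGTGtgcgcacgtca
SREBF2 (chr22:41832962-41832991, plus strand): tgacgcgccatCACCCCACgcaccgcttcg
ACACA (chr17:37299973-37300002, minus strand): gttccctagtaGTGGCGTGtttcctttcta
The matches in IDI1 and SCD lie 115 and 114 bases before the start site. A match of letters describes the sequence and is not a measured binding site, and the counts themselves were made on another build, hg19. The absence of a match holds for this exact core in this window only and does not show that a gene lacks the element.

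At 5 ng/mL, sterol enzymes fell in both lines and none of the 31 rose. Of the fatty acid enzymes, 3 of the 7 that reached the minimum fell in A549 cells. In BEAS-2B cells only 1 of 7 did, SCD, which is near the share of all genes there. In A549 cells 8 of the 31 fell (27 reached the minimum), namely HMGCS1, IDI1, CYP51A1, TM7SF2, SC5D, SCD, ELOVL6 and FADS2. Of all genes that reached the minimum in A549 cells, 17.1% fell and 16.1% rose. In BEAS-2B cells 9 of the 31 fell (28 reached the minimum), namely HMGCS1, IDI1, LSS, CYP51A1, TM7SF2, MSMO1, SC5D, INSIG1 and SCD, against 11.6% of all genes that fell and 7.33% that rose. The share of members that fell lay above the background in both lines. As the list was chosen with earlier results of these data known, this describes the list and is not independent support. With the minimum required in both libraries, IDI1, TM7SF2, SC5D and ELOVL6 dropped out in A549, which left 4, and IDI1, TM7SF2 and SC5D dropped out in BEAS-2B cells, which left 6. No share over all genes is given under this rule, so these counts are not set against a background. In these bulk libraries, fewer cells that express a gene and less RNA of it per cell cannot be told apart. HMGCS1, IDI1, CYP51A1, TM7SF2, SC5D and SCD fell in both lines, 6 of the 27 that reached the minimum in both, where 6.5% of all genes fell in both and 3.79% rose in both. None of the 31 rose in both. With an FC limit of 1.5 the count was 11 of 27, with MSMO1, DHCR7, INSIG1, ELOVL6 and FADS2 added and again none higher in both, against 13.1% of all genes lower and 12.3% higher in both. Over all members, the log2 FC lay below zero for 21 of 31 in A549 and 26 of 31 in BEAS-2B cells, against 45.7% and 48.3% of all genes at the minimum.

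**Figure D1:**
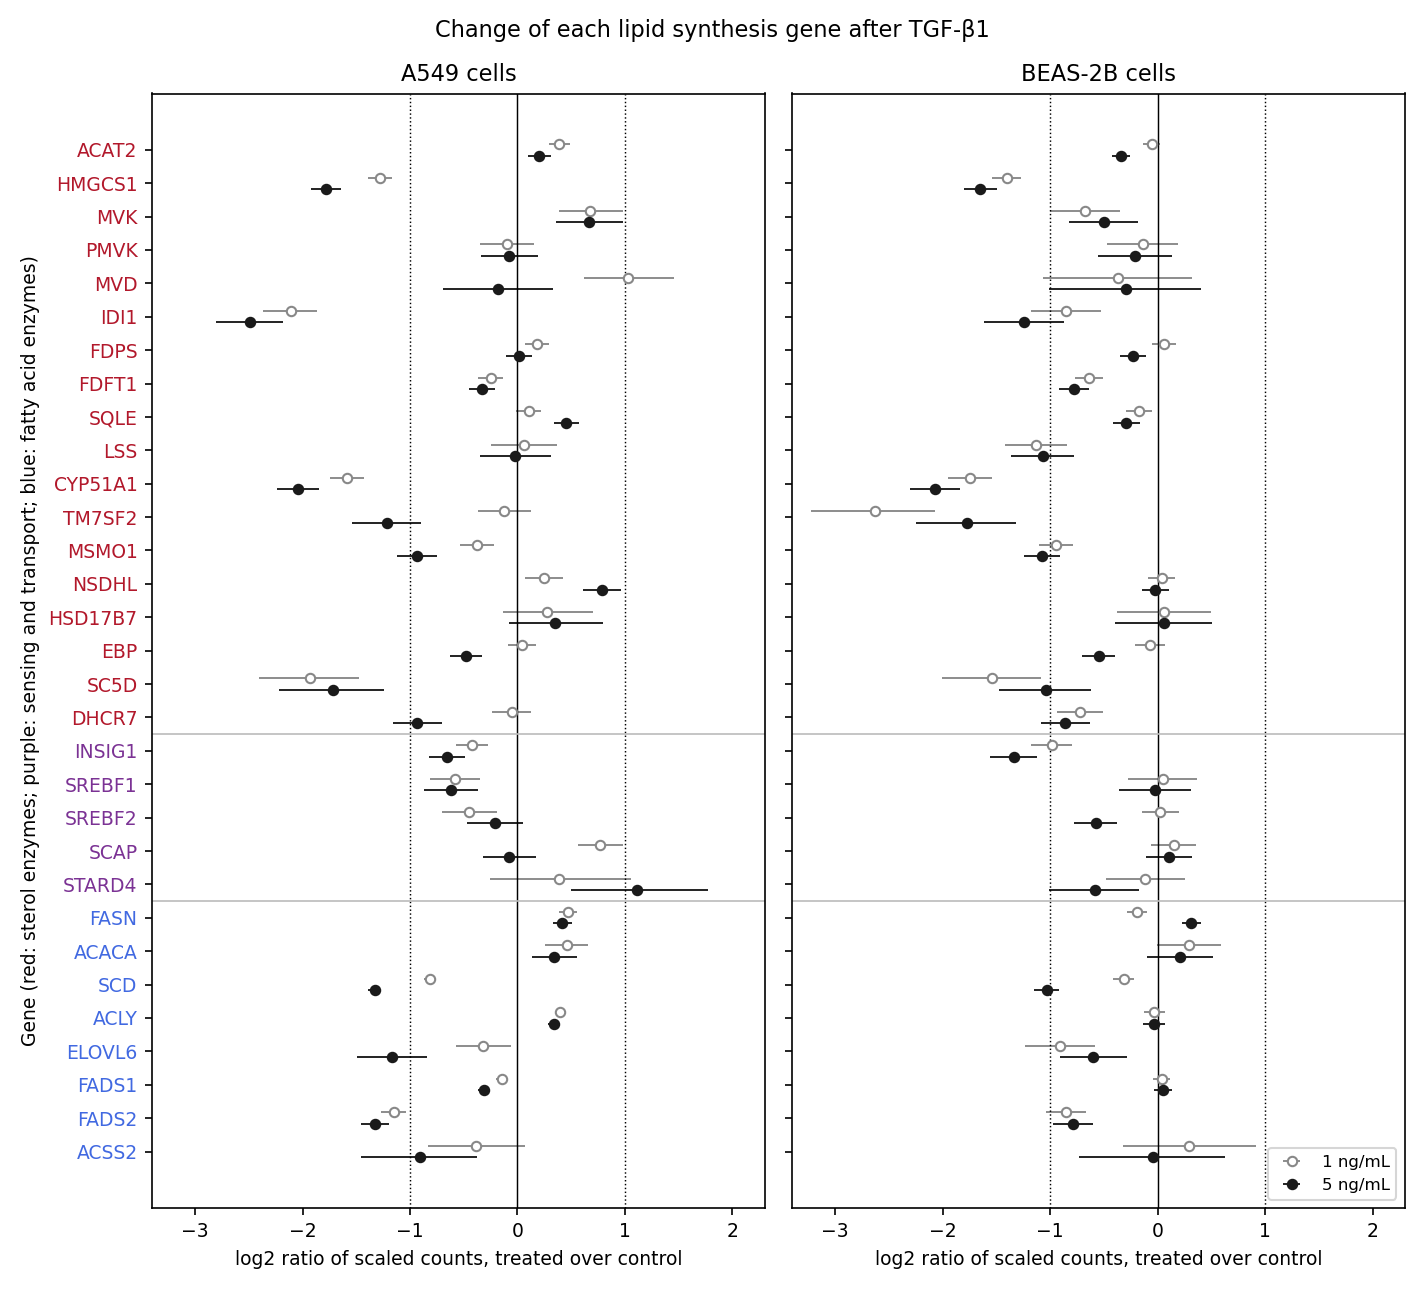
Log2 ratio of scaled counts (treated over control, no pseudocount, horizontal axis) for each of the 31 genes (vertical axis; red sterol enzymes, purple sensing and transport, blue fatty acid enzymes) in A549 (left) and BEAS-2B cells (right). Points are single libraries at 1 ng/mL (open) and 5 ng/mL (filled) against the same control library, bars are 95% counting intervals, and dotted lines mark an FC of 2. HMGCS1, IDI1, CYP51A1, TM7SF2, SC5D and SCD lie left of the dotted line at 5 ng/mL in both panels.

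The medians of the sterol and fatty acid enzymes were ordered differently in A549 and BEAS-2B cells. In A549 cells the sterol median was lower with the trend over 3′-end GC content removed, as given below. The fatty acid median under that processing is not given, so whether the order there holds cannot be read. Taken over all 18 sterol enzymes, whether or not they reached the minimum, the median log2 FC at 5 ng/mL was -0.26 in A549 and -0.66 in BEAS-2B cells. The 8 fatty acid enzymes had medians of -0.60 and -0.04, and the 5 genes of sensing and transport had -0.21 and -0.57. The median over all genes at the minimum was 0.11 in A549 and 0.03 in BEAS-2B cells. Within each branch the values spread widely, so that the medians describe few of the members. In A549 cells the sterol enzymes ran from -2.48 (IDI1) to 0.79 (NSDHL), and in BEAS-2B cells from -2.06 (CYP51A1) to 0.06 (HSD17B7).

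The entry into the mevalonate pathway was uneven. HMGCS1, the cytosolic synthase that forms HMG-CoA, had scaled counts of 1738, 717 and 505 at 0, 1 and 5 ng/mL in A549 and 1800, 680 and 574 in BEAS-2B cells. The untreated libraries thus had nearly the same level, and both treated libraries of each line lay far below it. At 5 ng/mL HMGCS1 fell 3.44-fold in A549 (interval 3.12 to 3.80) and 3.13-fold in BEAS-2B cells (2.82 to 3.49). ACAT2, which makes the acetoacetyl-CoA that HMGCS1 uses, stayed within an FC of 2 in both lines. It had 1386, 1813 and 1595 scaled counts in A549 and 2987, 2876 and 2357 in BEAS-2B cells. The row of ACAT2 is uncertain, because the gene overlaps TCP1 on the opposite strand and whether counting used strand is not given in the sources used here. The raw counts of the 2 rows followed each other in all 6 libraries, with 1196, 2639, 1758, 2678, 2556 and 1871 for ACAT2 and 1394, 2779, 1829, 2848, 2639 and 1937 for TCP1 (A549, then BEAS-2B, by dose).

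The mevalonate kinases and decarboxylase did not fall against control at either dose. MVK, mevalonate kinase, had 151, 241 and 239 scaled counts in A549 and 235, 147 and 166 in BEAS-2B cells. Both treated libraries lay above the control in A549 and below it in BEAS-2B cells, with an FC at 5 ng/mL of 1.58 (1.28 to 1.97) and 0.706 (0.564 to 0.882). With the trend over the GC content of the 3′ end removed, the A549 log2 FC of MVK at 5 ng/mL was 0.16 against 0.66. The MVK FC in A549 was 2.24 times that in BEAS-2B cells (1.64 to 3.07). MVK overlaps MMAB on the opposite strand, whose scaled counts were 342, 364 and 327 in A549 and 230, 242 and 238 in BEAS-2B cells. PMVK, phosphomevalonate kinase, had log2 FC between -0.21 and -0.08 in the 4 treated libraries, and each interval held equality. MVD, mevalonate diphosphate decarboxylase, rose in A549 cells at 1 ng/mL only, with 74, 151 and 65 scaled counts at 0, 1 and 5 ng/mL, and was below the minimum in all BEAS-2B libraries. This call of MVD was lost in 7 of 11 other processings, with a log2 FC between 0.20 and 1.03, and the lowest values came when the trend over base composition was removed.

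IDI1, the isomerase that interconverts the first isoprenoid units, showed the largest fall of the 31 genes in A549 cells. Its scaled counts were 546, 126 and 97 in A549 and 250, 138 and 106 in BEAS-2B cells. The untreated level was 2.18 times as high in A549 (1.86 to 2.57), while the levels at 5 ng/mL lay close together. At 5 ng/mL IDI1 fell 5.62-fold in A549 (4.55 to 7.0) and 2.36-fold in BEAS-2B cells (1.83 to 3.07). The fall was 2.38 times deeper in A549, with a counting interval from 1.69 to 3.34. FDPS, farnesyl diphosphate synthase, had 1164, 1318 and 1177 scaled counts in A549 and 1449, 1509 and 1236 in BEAS-2B cells. The FDPS row is uncertain as well, since its raw counts (1005, 1919, 1297, 1299, 1341 and 981) followed those of the overlapping antisense gene RUSC1-AS1 (952, 1920, 1293, 1292, 1321 and 974). The pseudogene entry FDPSP2 had 153, 46.7 and 28.1 scaled counts in A549 and 115, 55.1 and 22.7 in BEAS-2B cells, and how reads were divided between FDPS and its pseudogene cannot be told apart from the counts. Without ACAT2 and FDPS, the median log2 FC of the sterol enzymes was -0.41 in A549 and -0.82 in BEAS-2B cells at 5 ng/mL.

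The steps from farnesyl diphosphate to lanosterol moved less. FDFT1, squalene synthase, was not called, with a log2 FC at 5 ng/mL of -0.33 in A549 and -0.78 in BEAS-2B cells. SQLE, squalene epoxidase, had 1088, 1171 and 1492 scaled counts in A549 and 1360, 1204 and 1112 in BEAS-2B cells. With 5 ng/mL the SQLE library lay above its control in A549 (FC 1.37, 1.26 to 1.49) and below it in BEAS-2B cells (0.818, 0.749 to 0.893), neither of which was called. LSS, which closes squalene epoxide into lanosterol, fell in BEAS-2B cells only. It had 369, 169 and 176 scaled counts in BEAS-2B and 162, 169 and 160 in A549 cells, so that the treated BEAS-2B libraries came down to the level of all 3 A549 libraries. The fall in BEAS-2B cells was 2.09-fold (1.71 to 2.57), and the LSS FC in A549 was 2.06 times that in BEAS-2B cells (1.51 to 2.81). With upper quartile scaling the BEAS-2B log2 FC of LSS was -0.996, just short of a call.

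Among the 8 members that turn lanosterol into cholesterol, CYP51A1, TM7SF2 and SC5D fell in both lines. CYP51A1, the lanosterol demethylase, had 1068, 356 and 259 scaled counts in A549 and 972, 290 and 232 in BEAS-2B cells. Its levels were close in both lines at every dose. The falls of CYP51A1 at 5 ng/mL were 4.12-fold in A549 (3.60 to 4.72) and 4.19-fold in BEAS-2B cells (3.57 to 4.94), with a ratio between lines of 1.02 (0.824 to 1.26). TM7SF2, a sterol reductase acting after it, had 265, 244 and 114 scaled counts in A549 and 215, 34.9 and 63.0 in BEAS-2B cells. At 1 ng/mL it had fallen 6.17-fold in BEAS-2B cells (4.21 to 9.33), while in A549 cells its FC of 0.919 (0.776 to 1.09) held equality. TM7SF2 at 5 ng/mL fell 2.32-fold in A549 (1.86 to 2.91) and 3.42-fold in BEAS-2B cells (2.49 to 4.76). The same-strand neighbour VPS51 overlaps TM7SF2 and had 114, 366 and 326 scaled counts in A549 and 203, 266 and 365 in BEAS-2B cells, the opposite direction to TM7SF2. How reads in the shared stretch were assigned is not given in the sources used here.

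SC5D, the desaturase of the sterol ring, had 149, 39.2 and 45.4 scaled counts in A549 and 176, 60.8 and 85.7 in BEAS-2B cells. It was low in all 4 treated libraries, and below the minimum in each of them. SC5D at 5 ng/mL fell 3.29-fold in A549 (2.36 to 4.66) and 2.06-fold in BEAS-2B cells (1.54 to 2.78). The BEAS-2B call stood at a log2 FC of -1.03 and was lost in 3 of 11 other processings. MSMO1, the methylsterol monooxygenase, had 672, 518 and 352 scaled counts in A549 and 1094, 568 and 520 in BEAS-2B cells. It fell 2.10-fold in BEAS-2B cells (1.87 to 2.37), a call lost at a log2 FC of -0.999 with the trend over transcript GC content removed. Its FC in A549 was 0.524 (0.459 to 0.597), just outside the call. The ratio of the MSMO1 effects between lines was 1.10 (0.924 to 1.31), which holds equality. DHCR7, the reductase that completes cholesterol by one route, had 463, 446 and 243 scaled counts in A549 and 539, 327 and 297 in BEAS-2B cells. It was not called at either dose, with an FC at 5 ng/mL of 0.525 (0.448 to 0.614) in A549 and 0.552 (0.470 to 0.646) in BEAS-2B cells. DHCR7 passed a log2 FC of -1 in A549 under 3 of 11 other processings, with -1.13 for total counts and -1.30 and -1.43 with the trend over the GC content of the transcript or of its 3′ end removed. In BEAS-2B cells it did so under 1 of 11, the last of these, with -1.01.

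The remaining enzymes after lanosterol did not fall. EBP, the sterol isomerase, had a log2 FC at 5 ng/mL of -0.48 in A549 and -0.55 in BEAS-2B cells. NSDHL, a sterol dehydrogenase that acts on the same intermediates as MSMO1, had 448, 531 and 775 scaled counts in A549 and 1171, 1202 and 1155 in BEAS-2B cells. It lay above its control in A549 at 5 ng/mL (FC 1.73, 1.53 to 1.95) without reaching the limit of 2, while its BEAS-2B intervals held equality. HSD17B7, the ketosteroid reductase of the same step, was below the minimum in all 6 libraries, with 84.6 to 108 scaled counts. Its raw counts (73, 149, 119, 88, 91 and 81) ran close to those of the pseudogene HSD17B7P2 (59, 145, 101, 71, 65 and 57), so the HSD17B7 row is uncertain.

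**Figure D2:**
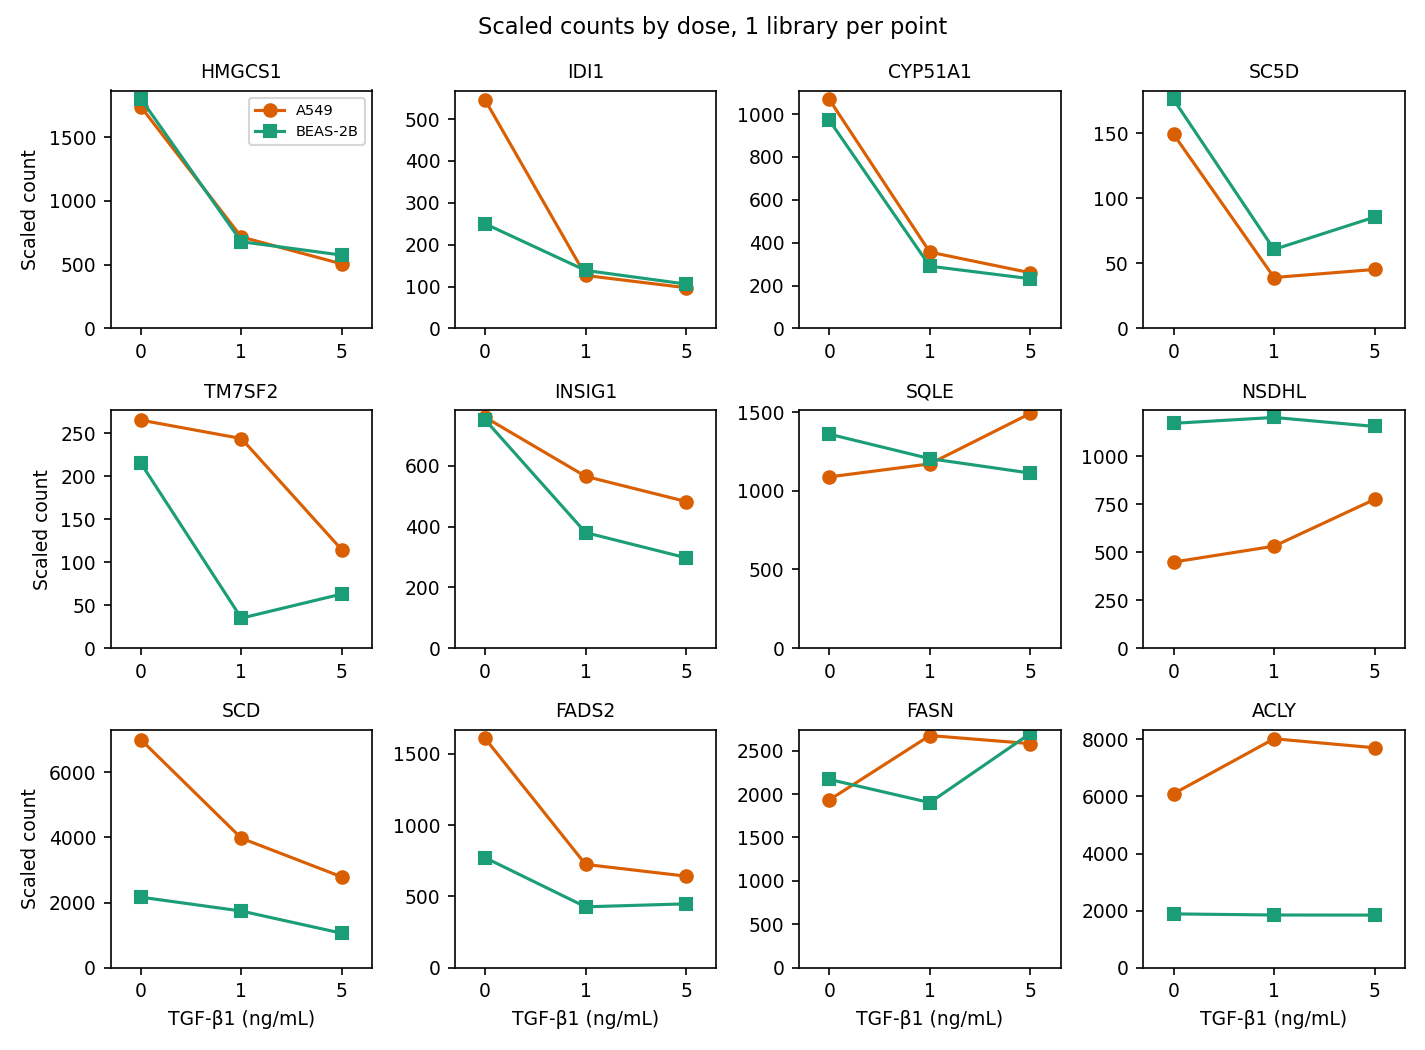
Scaled counts (vertical axes, from 0, a separate scale for each gene) of 12 genes at 0, 1 and 5 ng/mL TGF-β1 (horizontal axes, doses spaced evenly) in A549 (orange circles) and BEAS-2B cells (green squares). Each point is 1 library, so no error bar can be drawn. HMGCS1 and CYP51A1 come down alike in both lines, IDI1 starts higher in A549 than in BEAS-2B cells, and the SQLE and NSDHL lines of A549 end above their controls.

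Of the sensing and transport genes, only INSIG1 was called at 5 ng/mL, in BEAS-2B cells. INSIG1, the sterol-responsive anchor that holds SCAP in the endoplasmic reticulum and is itself a target of SREBPs, had 760, 565 and 483 scaled counts in A549 and 752, 380 and 297 in BEAS-2B cells. It started at the same level in both lines and fell 2.53-fold in BEAS-2B cells at 5 ng/mL (2.18 to 2.95), against an FC of 0.635 (0.565 to 0.713) in A549. The effects differed between lines by a ratio of 1.61 (1.33 to 1.95), beyond counting error. SREBF1, which encodes SREBP-1, had 345, 231 and 225 scaled counts in A549 and 181, 187 and 178 in BEAS-2B cells. Its raw counts (298, 336, 248, 162, 166 and 141) ran beside those of RAI1 (205, 302, 227, 129, 149 and 132), an overlapping gene, so that the SREBF1 row is uncertain. SREBF2, which encodes SREBP-2, had 268, 196 and 231 scaled counts in A549 and 627, 638 and 421 in BEAS-2B cells. Neither SREBF gene was called at either dose. With the trend over transcript GC content removed, SREBF1 had a log2 FC of -1.35 at 5 ng/mL and -1.31 at 1 ng/mL in A549, and with that over the 3′ end removed -1.07 at 5 ng/mL, against -0.62 and -0.58 without either. The log2 FC of SREBF2 at 5 ng/mL was -0.21 in A549 and -0.57 in BEAS-2B cells.

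SCAP, the escort of the SREBPs, had 290, 495 and 275 scaled counts in A549 and 418, 464 and 450 in BEAS-2B cells. It stood apart at 1 ng/mL in A549 cells (FC 1.71, 1.48 to 1.98), the deepest library, and its interval held equality at 5 ng/mL. The log2 FC of SCAP at 1 ng/mL was 0.77, and 0.27 with the trend over transcript GC content removed. STARD4, a cytosolic carrier of sterols, had 34.8, 45.3 and 75.3 scaled counts in A549, all below the minimum, and 147, 136 and 98.2 in BEAS-2B cells. The STARD4 values moved in opposite directions at 5 ng/mL, with an FC of 2.17 (1.41 to 3.41) in A549 and 0.667 (0.498 to 0.889) in BEAS-2B cells, and neither was called.

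Among the fatty acid enzymes, SCD, ELOVL6 and FADS2 fell in at least 1 line, and ACLY, ACACA, FASN and FADS1 did not. ACLY, which makes cytosolic acetyl-CoA from citrate, had 6095, 8021 and 7705 scaled counts in A549 and 1888, 1850 and 1847 in BEAS-2B cells. ACACA, acetyl-CoA carboxylase, had log2 FC between 0.21 and 0.46 in the 4 treated libraries. FASN, the fatty acid synthase, had 1933, 2673 and 2580 scaled counts in A549 and 2168, 1902 and 2698 in BEAS-2B cells. At 5 ng/mL the FASN library lay above its control in both lines, with FC of 1.34 (1.26 to 1.42) and 1.24 (1.17 to 1.32), below the limit of 2. The direction of FASN in A549 turned when the trend over base composition was removed, with a log2 FC of -0.32 for the whole transcript and -0.14 for the 3′ end. ACSS2, which makes acetyl-CoA from acetate, was below the minimum in all 6 libraries and could not be called. It had 86.9, 66.6 and 46.3 scaled counts in A549 (FC 0.532 at 5 ng/mL, 0.366 to 0.770) and 46.9, 57.4 and 45.3 in BEAS-2B cells.

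SCD, the stearoyl-CoA desaturase that introduces the double bond of oleate, had 6994, 3973 and 2785 scaled counts in A549 and 2166, 1741 and 1059 in BEAS-2B cells. The level came down at each dose in both lines, and untreated A549 cells had 3.23 times the level of BEAS-2B cells (3.07 to 3.40). SCD at 5 ng/mL fell 2.51-fold in A549 (2.40 to 2.62) and 2.04-fold in BEAS-2B cells (1.88 to 2.22). The BEAS-2B call was just inside the limit and was lost in 3 of 11 other processings, with a log2 FC of -0.91 at the least. FADS2, the desaturase that starts polyunsaturated fatty acid synthesis, had 1608, 725 and 642 scaled counts in A549 and 772, 428 and 448 in BEAS-2B cells. It fell 2.50-fold in A549 cells at 5 ng/mL (2.29 to 2.74) and had an FC of 0.581 (0.510 to 0.661) in BEAS-2B cells. FADS2 overlaps FEN1 on the same strand, and FEN1 fell in both lines, with 648, 443 and 246 scaled counts in A549 and 1965, 740 and 559 in BEAS-2B cells. Its part in the FADS2 counts was not tested.

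ELOVL6, which elongates saturated and monounsaturated chains, had 256, 205 and 114 scaled counts in A549 and 261, 140 and 173 in BEAS-2B cells. It fell 2.24-fold in A549 cells at 5 ng/mL (1.79 to 2.81). The ELOVL6 call in A549 was lost when the trend over transcript GC content or over that of the 3′ end was removed, with log2 FC of -0.85 and -0.92. FADS1, the partner desaturase of FADS2, stayed within an FC of 2, with 6362, 5744 and 5128 scaled counts in A549 and 2698, 2771 and 2792 in BEAS-2B cells. FADS1 and FADS2 lie side by side on opposite strands and overlap, yet their log2 FC in A549 at 5 ng/mL were -0.31 and -1.32.

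At 1 ng/mL, fewer of the 31 were called. In A549 cells HMGCS1, IDI1, CYP51A1, SC5D and FADS2 fell and MVD rose, against 12.6% of all genes that fell and 10.9% that rose. In BEAS-2B cells HMGCS1, LSS, CYP51A1, TM7SF2 and SC5D fell and none rose, against 9.13% and 5.66%. HMGCS1, CYP51A1 and SC5D fell in both lines at this dose, which is 3 of 27 with enough counts in both, against 3.6% of all genes. The median log2 FC of the sterol enzymes at 1 ng/mL was -0.01 in A549 and -0.66 in BEAS-2B cells, and that of the fatty acid enzymes was -0.23 and -0.11, against 0.09 and 0.01 over all genes at the minimum. Both doses of a line share the same control library, so their falls are not separate evidence.

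The step from 1 to 5 ng/mL, which does not use the control library, was small. In A549 cells TM7SF2 (2.13-fold, 1.74 to 2.64) and MVD (2.31-fold, 1.77 to 3.06) fell between the doses, against 1.79% of all genes that fell and 1.61% that rose. In BEAS-2B cells 0 of the 31 were called, where 0.412% of all genes fell and 0.492% rose. By counting interval alone, 18 of the 31 were lower at 5 than at 1 ng/mL in A549, 3 were higher and 10 held equality, against 29.6% of all genes at the minimum that were lower and 32.5% that were higher. In BEAS-2B cells 9 were lower, 2 were higher and 20 held equality, against 22.3% and 25%. DHCR7 showed the contrast of the lines, coming from 446 to 243 scaled counts in A549 and from 327 to 297 in BEAS-2B cells.

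Before treatment, 4 of the 8 fatty acid enzymes and 4 of the 18 sterol enzymes differed at least 2-fold between the lines. Of the 31 genes, 5 were at least 2-fold higher in untreated A549 and 5 were at least 2-fold higher in untreated BEAS-2B cells, against 18.1% and 18.9% of all genes. SCD, ACLY, FADS1 and FADS2 were the 4 fatty acid enzymes that were higher in A549, joined by IDI1. ACLY was 3.23 times (3.06 to 3.41) and FADS1 2.36 times (2.25 to 2.47) as high. ACAT2, LSS, NSDHL, SREBF2 and STARD4 were higher in BEAS-2B cells, from 2.16-fold (ACAT2) to 4.24-fold (STARD4). The median log2 difference, A549 minus BEAS-2B, was 0.97 for the fatty acid enzymes and -0.21 for the sterol enzymes, against -0.05 for all genes at the minimum. With 1 library per line, the line cannot be told apart from the library.

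The effect at 5 ng/mL was then compared between the lines for each gene. For 13 of the 31 genes the ratio of the effects held equality within its counting interval, among them HMGCS1, CYP51A1, MSMO1, EBP, DHCR7, FASN and ACACA. The value relative to control was higher in A549 for 11 genes and higher in BEAS-2B cells for 7, beyond counting error, against 38.7% and 24.1% of all genes at the minimum in both lines. These shares do not set the members apart from the rest. IDI1, SC5D, SCD, ELOVL6, FADS1, FADS2 and SREBF1 were the 7 whose value relative to control was lower in A549. These comprise 4 of the 8 fatty acid enzymes and 2 of the 18 sterol enzymes. At 1 ng/mL, 14 were higher in A549, 6 were higher in BEAS-2B cells and 11 held equality, against 38.8% and 25.2% of all genes that were higher in A549 and in BEAS-2B cells.

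**Figure D3:**
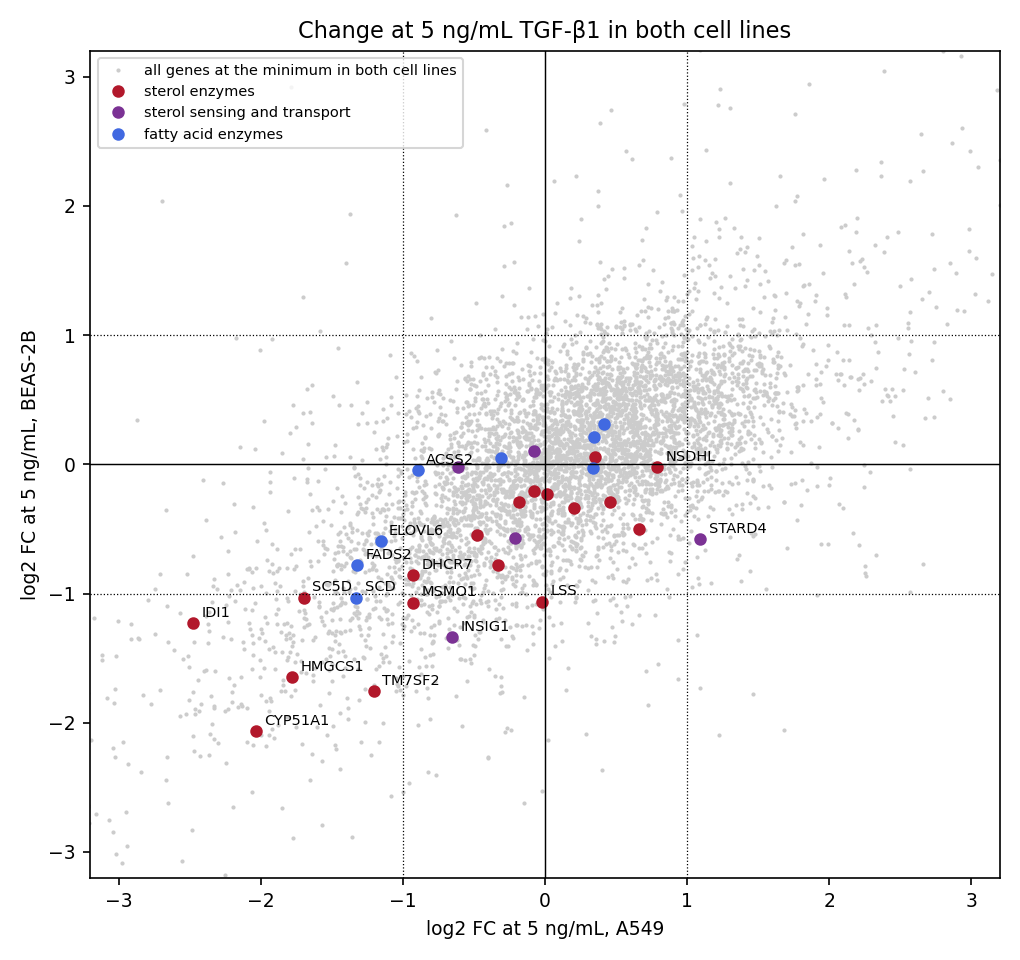
Log2 FC at 5 ng/mL in A549 (horizontal axis) against BEAS-2B cells (vertical axis), with 1 control and 1 treated library per line. Gray points are all genes at the minimum in both lines, colored points are the 31 genes by group (including those below the minimum), dotted lines mark an FC of 2, and points beyond 3.2 in either direction are not drawn. HMGCS1, IDI1, CYP51A1, TM7SF2, SC5D and SCD lie in the lower left field, and 0 of the 31 lie in the upper right field.

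Genes of neighbouring lipid pathways moved in both directions at 5 ng/mL, and their counts below stand against the 16.1% of all genes that rose and 17.1% that fell in A549, and the 7.33% and 11.6% in BEAS-2B cells. Of 16 genes of sterol handling, 10 reached the minimum in A549, where 2 rose and 4 fell, and 9 in BEAS-2B cells, where 0 rose and 2 fell. NPC1, the lysosomal exporter of cholesterol, fell in both lines, with 220, 177 and 101 scaled counts in A549 and 255, 127 and 116 in BEAS-2B cells. Its lysosomal partner NPC2 rose 4.77-fold in A549 (4.38 to 5.19), where it had 728, 3154 and 3468 scaled counts, while in BEAS-2B cells it had 1236, 825 and 717. STARD3, a sterol carrier of late endosomes, rose 2.33-fold in A549 (2.01 to 2.70), and SOAT1, which esterifies cholesterol, fell 2.3-fold (1.78 to 2.98).

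Of 10 genes of the isoprenoid branch, 6 reached the minimum in A549, where 0 rose and 1 fell, near the share of all genes, and 7 in BEAS-2B cells, where 1 rose and 2 fell. COQ2, the prenyltransferase of coenzyme Q synthesis, fell in both lines, 4.34-fold in A549 (3.2 to 5.98) and 3.71-fold in BEAS-2B cells (3.01 to 4.61). FNTB, a subunit of farnesyltransferase, fell 2.99-fold in BEAS-2B cells (2.11 to 4.30), and RABGGTA, a subunit of the Rab prenylating enzyme, rose 2.53-fold (1.80 to 3.60).

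Of 23 genes of fatty acid supply and use, 17 reached the minimum in A549, where 2 rose and 4 fell, and 14 in BEAS-2B cells, where 1 rose and 3 fell. With so few genes, these counts do not set the list apart from all genes. IDH1, a cytosolic source of the NADPH that both branches consume, fell 5.16-fold in A549 (4.46 to 6.0) and 2.46-fold in BEAS-2B cells (1.92 to 3.18). GPAM, which starts glycerolipid synthesis, rose in both lines, with 67.2, 317 and 406 scaled counts in A549 and 104, 260 and 282 in BEAS-2B cells.

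Of 10 genes of fatty acid oxidation, 7 reached the minimum in A549 and 6 in BEAS-2B cells, and 0 rose and 2 fell in each line. HADHB, a subunit of the mitochondrial trifunctional protein, fell 2.15-fold in A549 (1.79 to 2.57) and 2.91-fold in BEAS-2B cells (2.18 to 3.94). CPT1A, the gatekeeper of mitochondrial fatty acid entry, fell 3.94-fold in BEAS-2B cells (3.37 to 4.62) and had an FC of 0.569 (0.526 to 0.616) in A549. CPT2 fell 2.04-fold in A549 (1.49 to 2.79).

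Base composition moved with the changes across all genes. Over 20 bins of the GC content of the last 500 nucleotides of the transcript, where this 3′-end assay reads, the median log2 FC at 5 ng/mL spanned 1.14 in A549 and 0.469 in BEAS-2B cells, with GC-rich genes higher. The bins held genes with a mean ND value of 5 or more over the 6 libraries. Across the genes at the minimum that have a GC value, Spearman's rho between 3′-end GC content and the log2 FC was 0.32 in A549 (n = 6832) and 0.09 in BEAS-2B cells (n = 6477). Across the 31 genes rho was 0.12 and 0.32, as a description over genes that share the same libraries. Among the 31 genes the GC content of the 3′ end ran from 28.4% (STARD4) to 66.4% (MVD). With the trend over the 3′ end removed, 9 of the 31 genes fell in each line and 0 rose at 5 ng/mL, and the median of the sterol enzymes in A549 was -0.59. Of all genes at the minimum, 1170 then fell and 978 rose of 7115 in A549, and 780 fell and 467 rose of 6735 in BEAS-2B cells. With the trend over the whole transcript removed, 9 of the 31 fell in A549 and 6 in BEAS-2B cells. Of the same 7115 and 6735 genes, 1194 then fell and 992 rose in A549, and 780 fell and 475 rose in BEAS-2B cells. The calls of HMGCS1, IDI1, CYP51A1 and TM7SF2 at 5 ng/mL kept a log2 FC of -1 or lower in both lines under each of the 11 other processings that give one. Those of IDI1 and TM7SF2 were nonetheless lost in both lines with the minimum required in both libraries, as given above.

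**Figure D4:**
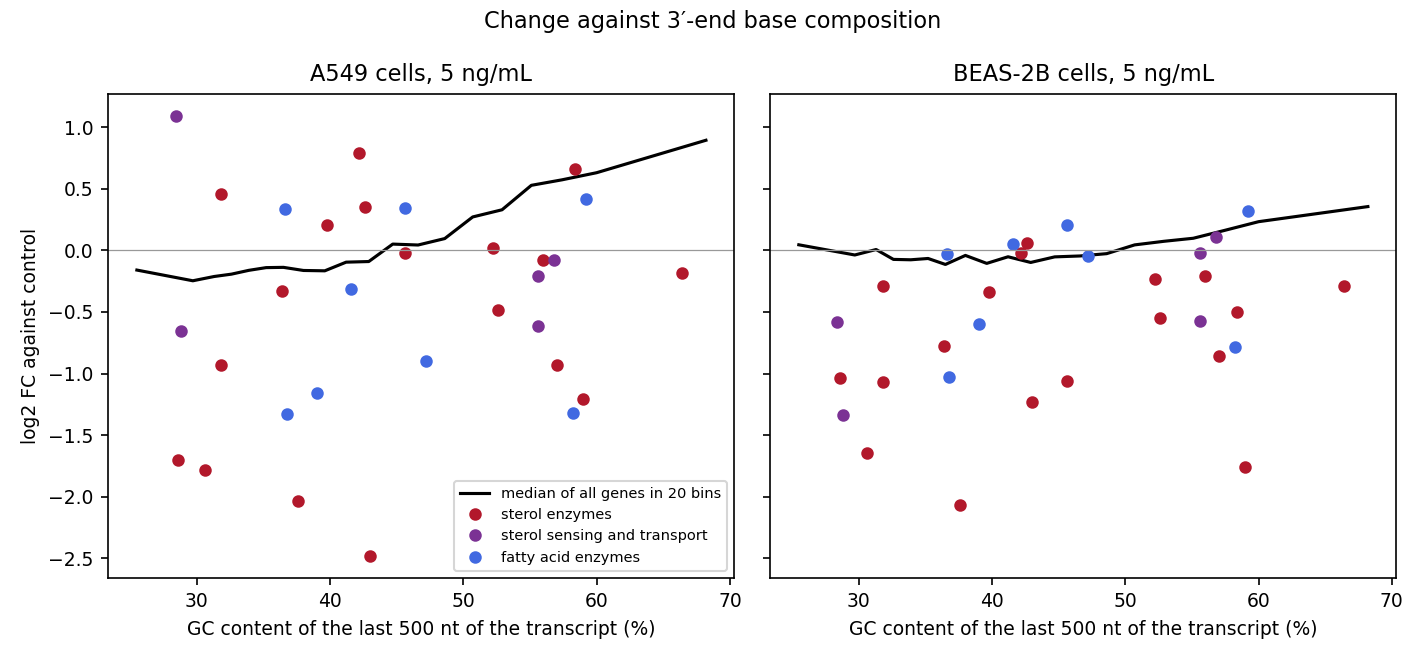
Log2 FC at 5 ng/mL (vertical axis, control and treated library of each line) against the GC content of the last 500 nucleotides of the transcript (horizontal axis, percent) in A549 (left) and BEAS-2B cells (right). The black line is the median, in 20 bins, of all genes with a mean ND value of 5 or more over the 6 libraries. Colored points are the 31 genes by group. The line rises with GC content by more in A549 (a span of 1.14) than in BEAS-2B cells (0.469), and IDI1, CYP51A1 and TM7SF2 lie below it in both panels.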

How the data were processed

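The authors deposited whole-number read counts per gene symbol, without normalization, from QuantSeq 3′-mRNA libraries of total RNA, and the submitters' processing notes name Bowtie2, bedtools and the build hg19. The use of strand in counting is not given in the sources used here. Counts of all 25737 entries were scaled with TMM (edgeR 4.0.16, R 4.3.3). Ratios, intervals and figures used Python 3.11.15, scipy 1.17.1, numpy 2.4.6, matplotlib 3.10.9 and pandas 2.3.3. Calls needed an FC of 2 or more and an ND value of 7 or more in the higher library. Differences between lines carry exact conditional intervals, and their shares over all genes come from log-scale intervals. The steps were tested on simulated data.

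The members and lists were chosen with earlier results of these data known. All 31 genes are named. Of 59 related genes, those called in the same direction in both lines at 5 ng/mL and the 3 largest called changes per list and line are named, except that some of them are not reported here. GC content came from GENCODE transcripts of GRCh38.

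Alternatives were DESeq2 1.42.0 size factors, total counts, upper quartile factors, TMM within each line, a filter of at least 10 counts, pseudocounts of 0.1 and 5, thinned libraries, summed entries, other minimums, log2(CPM + 1), and FC limits of 1.5 and 3. Removing GC trends and leaving out ACAT2 and FDPS were added after seeing the data. A search with a longer form of the sterol element preceded the one reported.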

Additional observations from a re-analysis of the deposited data

Results flagged for a closer look

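MVK and NPC2 had a higher level than the control in both treated A549 libraries and a lower one in both treated BEAS-2B libraries. Each lay beyond counting error in the main processing. For MVK in A549 the size depended on the processing, with a log2 FC as low as 0.16 at 5 ng/mL (main 0.66) and 0.26 at 1 ng/mL (main 0.68). The log2 FC at 5 ng/mL in A549 minus that in BEAS-2B cells was 1.16 for MVK and 3.04 for NPC2. The FC in A549 was 2.24 times that in BEAS-2B cells for MVK (1.64 to 3.07) and 8.22 times for NPC2 (7.19 to 9.40). These intervals cover counting error only, and the difference was not tested against the spread between cultures. Neither MVK change was called in either line, and of the NPC2 changes at 5 ng/mL the rise in A549 was.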

How the results depend on the processing

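Of the values that answer a comparison, recomputed under the alternatives that give them, 179 kept their size within the limits set and 24 moved. The fatty acid median of BEAS-2B cells at 5 ng/mL (-0.04) lay too near zero for its sign to be read. Its middle members ACLY and ACSS2 had log2 FC up to 0.08 and 0.02 under other processings. Counts of called members follow, for A549 and BEAS-2B cells against control at 5 ng/mL (main 8 and 9) and 1 ng/mL (main 6 and 5), between doses (2 and 0), and between untreated lines (10). Total counts gave 8 for BEAS-2B at 1 ng/mL and a fatty acid median of -0.40 for A549 at 1 ng/mL. Thinned libraries gave 1 between the A549 doses. The minimum in both libraries gave 4 for A549 at 5 ng/mL, 3 for each line at 1 ng/mL and 0 between the A549 doses. With log2(CPM + 1) as the value, they were 4, 5, 3, 2 and 0 (A549 and BEAS-2B at 5 ng/mL, the same at 1 ng/mL, A549 doses) and 6 between untreated lines. An FC of 1.5 gave 14, of which 2 rose, for A549 at 5 ng/mL, 13 for BEAS-2B at 1 ng/mL, and 5 and 2 between doses. An FC of 3 gave 4, 3, 2, 2 and 0 in the same order, and 3 between untreated lines. Removing the GC trend over 3′ ends gave a sterol median of -0.59 for A549 at 5 ng/mL. Stricter limits pass fewer genes by construction, and the cause of the other moves was not tested.

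Scaling by total counts shifted the median log2 FC of all genes by -0.25 and -0.15 at 5 ng/mL and by -0.19 and -0.14 at 1 ng/mL (A549, BEAS-2B), and the share of calls that rose at 5 ng/mL went from 48.4% to 33.8% and from 38.7% to 26.9%. With 1 library per condition, depth limits counting error only, and no replicate could be left out.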
